A study of Mus musculus with 18 samples.

Results

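The cadherins and protocadherins were taken as the 90 gene symbols present in both count tables that begin with CDH followed by a number, or with PCDH, without CDH1, CDH3 and CDH5, out of 24333 symbols that the tables share. They comprise 3 classical type I cadherins, 12 type II cadherins, 5 atypical cadherins, 12 protocadherins outside the gene clusters, and 58 clustered protocadherins (14 PCDHA, 22 PCDHB and 22 PCDHG), which are treated apart. Expression was measured by RNA-seq in the mouse mammary tumour cell lines 168FARN and 67NR, each as WT cells, *Kmt2c* KO cells and *Kmt2d* KO cells, with 3 replicates of each and 18 libraries in all. *Kmt2c* and *Kmt2d* encode histone methyltransferases that act at enhancers, and the knockouts were made with Cas9 and 3 sgRNAs against exon 1 of the gene. The knockout cells were pools sorted after transient transfection and not clones. The WT columns of 168FARN are named as control sgRNA columns and those of 67NR as WT, so the controls of the lines may differ in what they carry.

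Cadherins are transmembrane proteins whose extracellular repeats bind calcium and hold neighbouring cells together. Classical cadherins bind their own kind across a junction and anchor to actin through beta-catenin, plakoglobin, p120 catenin and alpha-catenin, and epithelia mostly carry E-cadherin (*Cdh1*) whereas neural and mesenchymal cells carry N-cadherin (*Cdh2*). Protocadherins lack the classical catenin-binding tail. The clustered ones are best known from neurons, where single cells use a few of the many alternative first exons, and the PCDHA and PCDHG transcripts splice these to constant exons that all genes of the cluster share.

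The 9 libraries of 168FARN held 14359760 to 43427382 counts on genes, and those of 67NR 40951775 to 79251530. Of the counts from 1 to 20, between 91.2 and 96.2% were even numbers in the 67NR libraries, against 39.5 to 47.2% in 168FARN, so that the number of independent fragments behind a 67NR count may be smaller than the count. Replicate 3 stood apart from replicates 1 and 2 in both lines, and in 67NR *Kmt2d* KO replicate 3, 28.7% of all counts lay on the ribosomal transcript *Rn45s*. The mRNA of the targeted gene did not fall in its knockout: *Kmt2c* changed by -0.18 ± 0.49 (log2 fold change ± SE, n = 3 against 3) in 168FARN *Kmt2c* KO and by 0.63 ± 0.14 in 67NR *Kmt2c* KO, and *Kmt2d* by 0.71 ± 0.36 and 0.22 ± 0.23 in the *Kmt2d* KO cells. A frameshift in exon 1 can leave the transcript in place, so these counts do not check the labels. Immune markers summed to at most 0.351 CPM and endothelial markers to at most 0.657 CPM, and of the neural markers, *Rbfox3* and *Snap25* were at or near 0 while *Map2* made up most of the sum. The epithelial markers *Epcam* and *Cldn4* were at 0 in all 9 libraries of 168FARN, where *Krt8* made up nearly all of a summed level of 98.8 to 397 CPM.

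Levels are given in CPM, that is counts scaled to a common library size with TMM factors over the 18 libraries, and levels of genes outside the PCDHA and PCDHG clusters are ranked only per kilobase of transcript. Of the 90 genes, 16 had no count in any library (*Cdh4*, *Cdh6*, *Cdh20*, *Pcdh8*, *Pcdh11x*, *Pcdh20* and 10 PCDHA genes), and 26 reached a mean of 1 CPM in at least 1 of the 6 groups, 13 of them outside the clusters. The lines differed in which of them were most abundant. In 168FARN WT cells the highest levels per kilobase outside the clusters were those of *Cdh2* (16.6 CPM per kb), *Pcdh7* (13.9), *Pcdh10* (5.62) and *Pcdh1* (3.62). In 67NR WT cells they were those of *Cdh10* (6.01), *Pcdh1* (3.56), *Cdh24* (2.52) and *Cdh2* (2.28). After knockout, 67NR led with *Cdh2* (40.1 in *Kmt2c* KO and 31.0 in *Kmt2d* KO) and *Pcdh7* (33.0 and 20.7), whereas in 168FARN *Cdh2* (15 and 15.1) and *Pcdh7* (20.4 and 16.7) again stood highest.

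**Figure D1:**
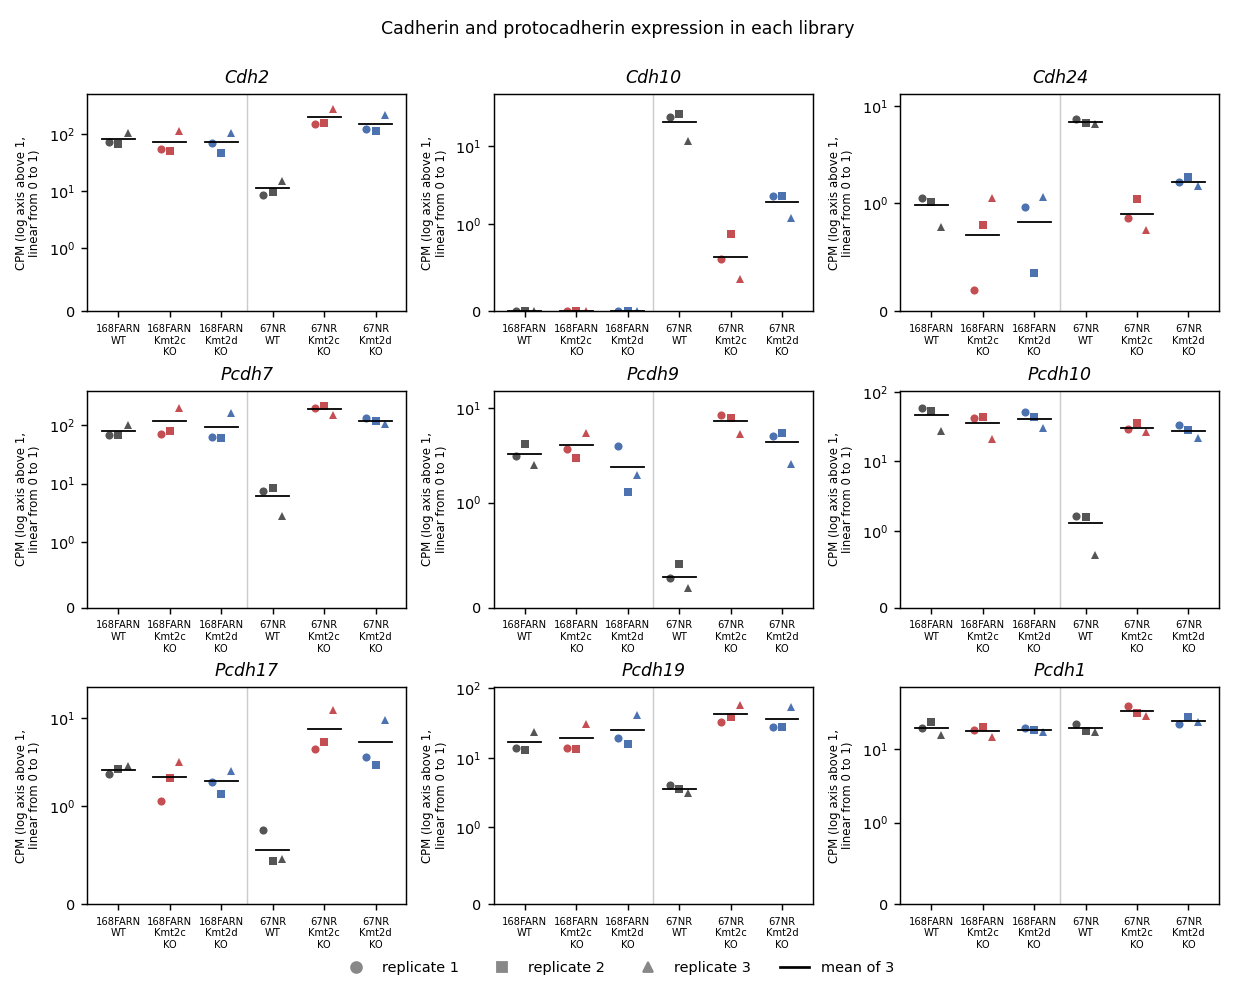
CPM of 9 members in each of the 18 libraries, on an axis that is logarithmic above 1 and linear from 0 to 1. Points are libraries, with a symbol for each replicate number, bars are means of 3, and the 168FARN groups stand left of the line and the 67NR groups right of it. In 67NR every knockout library lies above every WT library for *Cdh2*, *Pcdh7*, *Pcdh9*, *Pcdh10*, *Pcdh17* and *Pcdh19* and below for *Cdh10* and *Cdh24*, while in 168FARN the genotypes overlap, or for *Cdh10* lie at 0.

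Each knockout was compared with WT to ask which of these genes differed in level between the knockout pool and WT cells. Replicates were collected a passage apart from the same cells. Loss of *Kmt2c* or *Kmt2d* therefore cannot be told apart here from other differences between the pools. A gene was called changed at a Benjamini-Hochberg adjusted p under 0.1 from edgeR's quasi-likelihood test over all genes of the line, with an absolute log2 fold change over 0.6. In 67NR, 37 members passed the filter on low counts. In *Kmt2c* KO cells 25 of the 37 were called, against 35.3% of all tested genes, and 16 of them rose and 9 fell, against 17.9% of all genes higher and 17.4% lower. In *Kmt2d* KO cells 23 were called, against 25.5% of all genes, with 15 higher and 8 lower, against 13.9% and 11.6%. Both knockouts raised 13 members (*Cdh2*, *Pcdh7*, *Pcdh9*, *Pcdh10*, *Pcdh17*, *Pcdh19* and 7 PCDHG genes) and lowered 8 (*Cdh10*, *Cdh24* and 6 PCDHB genes), but they share their WT libraries, so this overlap is no independent evidence. Over the 37 the median log2 fold change came to 0.78 for *Kmt2c* KO and 0.92 for *Kmt2d* KO, and over all genes to -0.02 for both. These counts and medians are descriptions, since 10 of the 37 had all 3 libraries of a genotype at or above the filter's minimum of 0.184 CPM only in knockout cells and 5 only in WT cells. In 47 of the 48 calls the 3 knockout libraries did not overlap the 3 WT libraries, the exception being *Cdh23* in *Kmt2c* KO, and in all 48 the same direction was seen within each of the 3 replicate numbers. The calls were selected by a test on these same libraries, so this separation adds no support. No share over all genes is given for it.

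In 168FARN, 28 members were tested and none was called in either knockout, where 0.359% of all genes were called in *Kmt2c* KO and 0.286% in *Kmt2d* KO. At an unadjusted p under 0.05, edgeR gave 1 member in *Kmt2c* KO and 0 in *Kmt2d* KO, and DESeq2 called 1 (*Pcdhb14*) and 0. The fits above use genotype only. When the numbers of the replicates were taken to pair the samples, a replicate block in the fit gave 1 call in 168FARN *Kmt2c* KO (*Pcdhb14*, log2 fold change -1.31, adjusted p = 0.031) and 2 in *Kmt2d* KO (*Cdh23*, 1.10, adjusted p = 0.088, and *Pcdh18*, -0.85, adjusted p = 0.043). The counts from DESeq2 and from the block are given without the share of all genes called in those fits. *Pcdhb14* measured 1.88, 1.44 and 1.61 CPM in 168FARN WT, 0.596, 0.694 and 0.656 in *Kmt2c* KO and 1.53, 0.858 and 0.791 in *Kmt2d* KO. Its *Kmt2c* KO libraries thus lay below all WT libraries. Over the 28 the median log2 fold change came to -0.15 for *Kmt2c* KO and -0.21 for *Kmt2d* KO, and over all genes to 0.01 for both.

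**Figure D2:**
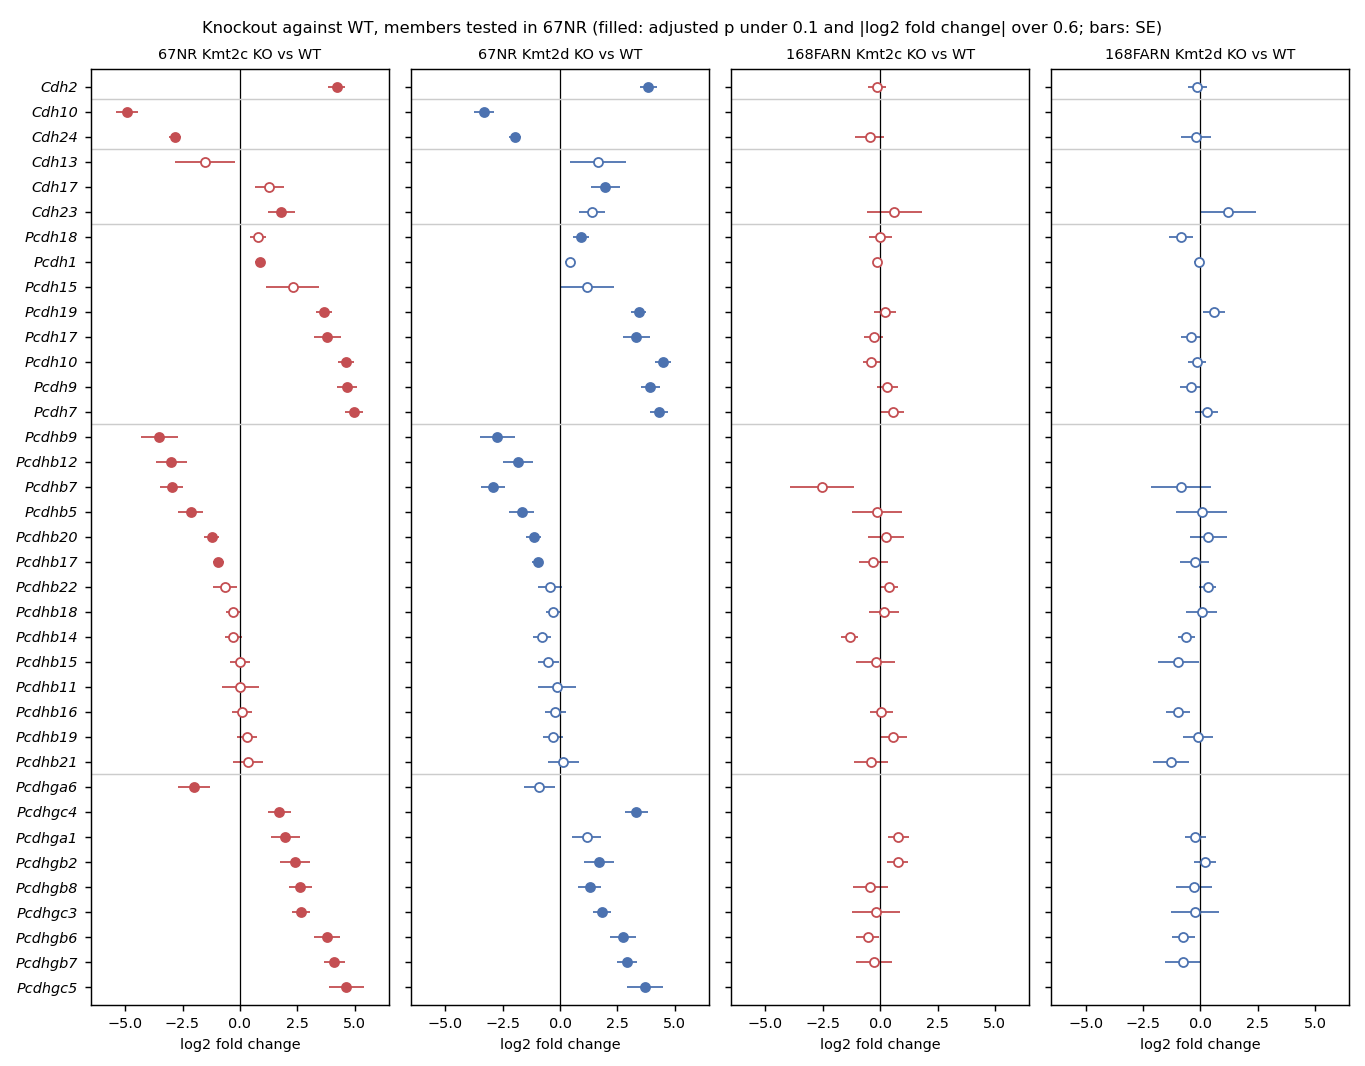
Log2 fold changes with SE of the 37 members tested in 67NR, for each knockout against WT of the same line, with the 27 of them that were also tested in 168FARN. Genes are grouped by class, and filled points passed the threshold. Filled points appear in the 67NR panels, 25 in *Kmt2c* KO and 23 in *Kmt2d* KO, and in neither 168FARN panel.

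Among the classical type I cadherins, *Cdh2* alone was tested. N-cadherin is the cadherin of neurons, heart muscle and fibroblasts, and its gene lies on the minus strand of chromosome 18. In 67NR it measured 8.35, 9.77 and 15 CPM in WT, 150.2, 158 and 275 in *Kmt2c* KO and 123.3, 114 and 214 in *Kmt2d* KO. All 6 knockout libraries were thus above all WT libraries, by 18.6-fold in *Kmt2c* KO (log2 4.22 ± 0.38, adjusted p = 4.6e-05) and 14.3-fold in *Kmt2d* KO (3.84 ± 0.37, adjusted p = 0.00013). In 168FARN it measured 71.7, 65.7 and 104 in WT, 54.0, 51.2 and 113 in *Kmt2c* KO and 70.2, 45.8 and 103 in *Kmt2d* KO. The 168FARN genotypes overlapped, with log2 fold changes of -0.15 ± 0.40 and -0.12 ± 0.40. *Cdh15* (M-cadherin of muscle) was not tested, with at most 0.499 CPM in any library, and *Cdh4* had no counts.

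The type II cadherins moved the other way in 67NR, where both tested genes fell. *Cdh10*, best known from the brain, lies on the plus strand of chromosome 15 of mm9, from 18748702 to 18943990. It measured 24, 25.8 and 11.6 CPM in 67NR WT, 0.60, 0.886 and 0.376 in *Kmt2c* KO and 2.31, 2.34 and 1.20 in *Kmt2d* KO. The 3 genotypes did not overlap, and the level was 30.6-fold lower in *Kmt2c* KO (log2 -4.94 ± 0.48, adjusted p = 6.8e-05) and 9.89-fold lower in *Kmt2d* KO (-3.31 ± 0.44, adjusted p = 0.00077). *Cdh10* had no count in any of the 9 libraries of 168FARN, so that 67NR WT stood at least 231-fold above the floor of 3 counts per 168FARN WT library (counting error only). *Cdh24* (chromosome 14, minus strand, 55250829 to 55260201) measured 7.33, 6.70 and 6.59 CPM in 67NR WT, 0.861, 1.10 and 0.751 in *Kmt2c* KO and 1.66, 1.84 and 1.51 in *Kmt2d* KO. It was 7.14-fold lower in *Kmt2c* KO (-2.84 ± 0.26, adjusted p = 5.3e-05) and 3.89-fold lower in *Kmt2d* KO (-1.96 ± 0.25, adjusted p = 0.00066), again without overlap. The knockout levels of *Cdh24* came near those of 168FARN WT, at 1.13, 1.04 and 0.781. The other 10 type II genes stayed at or below 0.295 CPM in all 18 libraries and were not tested.

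Of the atypical cadherins, 3 were tested in 67NR. *Cdh23*, which forms the tip links of inner ear hair cells together with *Pcdh15*, measured 1.43, 1.23 and 0.597 CPM in WT, 4.83, 4.84 and 1.13 in *Kmt2c* KO and 2.86, 3.57 and 1.81 in *Kmt2d* KO. It rose in *Kmt2c* KO (log2 1.81 ± 0.58, adjusted p = 0.039), a call lost without *Kmt2c* KO replicate 1 (adjusted p = 0.12) or replicate 2 (adjusted p = 0.12), and its value in *Kmt2d* KO was 1.41 ± 0.57 (adjusted p = 0.11, or 0.0038 with the replicate block). Replicate 3 was the lowest library of *Cdh23* in all 6 groups. *Cdh17*, the cadherin of liver and intestine, measured 0.355, 0.147 and 0.276 CPM in WT, 0.287, 0.458 and 1.08 in *Kmt2c* KO and 0.812, 0.663 and 1.46 in *Kmt2d* KO. It rose in *Kmt2d* KO (1.97 ± 0.63, adjusted p = 0.052), which did not hold without *Kmt2d* KO replicate 3 (adjusted p = 0.13) or WT replicate 2 (adjusted p = 0.16). *Cdh13* (T-cadherin, held in the membrane by a lipid anchor) measured 0.508, 0.617 and 0.0459 in WT, 0.157, 0.214 and 0 in *Kmt2c* KO and 1.38, 2.10 and 0.0502 in *Kmt2d* KO, and was called in neither unless replicates were paired. With the replicate block it fell in *Kmt2c* KO (-1.66, adjusted p = 0.036) and rose in *Kmt2d* KO (1.52, adjusted p = 0.043). *Cdh26* was not tested, had no count in 67NR and reached 7.99 CPM in 168FARN *Kmt2d* KO replicate 3 and 1.66 in WT replicate 3, against at most 0.164 in the other 7 libraries of 168FARN. The kidney gene *Cdh16* stayed at or below 0.0522 CPM.

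Of the 12 protocadherins outside the clusters, 8 were tested in 67NR, and 6 rose in each knockout with none falling. Of all genes, 17.9% rose in *Kmt2c* KO and 13.9% in *Kmt2d* KO. *Pcdh9* met the filter's minimum in every library of a genotype only in knockout cells. *Pcdh7*, on the plus strand of chromosome 5 from 58109260 to 58520590, measured 7.49, 8.43 and 2.80 CPM in 67NR WT, 195, 211 and 149.6 in *Kmt2c* KO and 129.6, 116 and 104 in *Kmt2d* KO. The knockouts were 31.4-fold and 19.6-fold higher (log2 4.97 ± 0.41, adjusted p = 2.6e-05, and 4.29 ± 0.39, adjusted p = 8.5e-05), which put *Pcdh7* beside *Cdh2* as the most abundant gene per kilobase. In 168FARN it measured 68.3, 67.8 and 97.9 in WT, 70.8, 78.9 and 193 in *Kmt2c* KO and 62.9, 59.4 and 158 in *Kmt2d* KO, where replicate 3 was the highest of each genotype. *Pcdh9*, which with *Pcdh1* and *Pcdh7* belongs to the delta-1 protocadherins, was low in 67NR WT with 0.284, 0.411 and 0.184 CPM and measured 8.47, 7.85 and 5.30 in *Kmt2c* KO and 5.07, 5.43 and 2.54 in *Kmt2d* KO. These were rises of 25.6-fold (4.68 ± 0.45, adjusted p = 6.3e-05) and 15.4-fold (3.94 ± 0.43, adjusted p = 0.00026). *Pcdh1*, a protocadherin of airway and other epithelia, changed by less than *Pcdh7* and *Pcdh9*, from 22.4, 18 and 17.4 CPM in WT to 39.2, 31.7 and 28.3 in *Kmt2c* KO and 22.1, 27.9 and 23.5 in *Kmt2d* KO. Its rise passed in *Kmt2c* KO (0.86 ± 0.19, adjusted p = 0.0067) and its value in *Kmt2d* KO was 0.42 ± 0.19 (adjusted p = 0.14).

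*Pcdh10*, *Pcdh17*, *Pcdh18* and *Pcdh19* belong to the delta-2 protocadherins. *Pcdh10* lies on the plus strand of chromosome 3 from 45182320 to 45238488 and measured 1.64, 1.56 and 0.689 CPM in 67NR WT, 29.1, 35.5 and 26.7 in *Kmt2c* KO and 33.2, 28.1 and 21.8 in *Kmt2d* KO. It rose 24.5-fold (4.62 ± 0.35, adjusted p = 1.8e-05) and 22.3-fold (4.48 ± 0.35, adjusted p = 3.6e-05). In 168FARN its 9 libraries lay between 20.9 and 58.1 with overlapping genotypes, and replicate 3 was the lowest of each. *Pcdh17* (chromosome 14, plus strand, 84843370 to 84936867) measured 0.756, 0.441 and 0.459 CPM in WT, 4.51, 5.35 and 12.5 in *Kmt2c* KO and 3.65, 2.91 and 9.51 in *Kmt2d* KO. It rose 14.1-fold and 10.0-fold (3.81 ± 0.60, adjusted p = 0.0012, and 3.33 ± 0.59, adjusted p = 0.0037), with the highest value of each knockout in replicate 3. *Pcdh19*, the X-linked gene mutated in an epilepsy that mainly affects girls, measured 4.11, 3.57 and 3.10 in WT, 32.8, 38.9 and 58.2 in *Kmt2c* KO and 27.9, 27.7 and 54.9 in *Kmt2d* KO. It rose 12.7-fold and 10.8-fold (3.67 ± 0.34, adjusted p = 5.5e-05, and 3.43 ± 0.34, adjusted p = 0.00014). *Pcdh18* measured 4.70, 3.89 and 8.43 in WT, 7.27, 7.72 and 12.7 in *Kmt2c* KO and 8.76, 8.67 and 13.1 in *Kmt2d* KO. It rose in *Kmt2d* KO (0.92 ± 0.35, adjusted p = 0.092), a call lost without WT replicate 1 or 2 or any *Kmt2d* KO library (adjusted p from 0.13 to 0.24), and was 0.78 ± 0.35 in *Kmt2c* KO (adjusted p = 0.12, or 0.0024 with the replicate block). *Pcdh15* stayed below 1 CPM and was 2.29 ± 1.16 in *Kmt2c* KO (adjusted p = 0.16, or 0.020 with the replicate block, at 2.46) and 1.18 ± 1.18 in *Kmt2d* KO (adjusted p = 0.53). *Pcdh12* was not tested, with at most 0.201 CPM.

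The sequences upstream of 4 of these genes are shown because both type II genes fell together and *Pcdh10* and *Pcdh17* rose together in 67NR. Each is the 250 bases before the annotated RefSeq start in GRCm38.p6, another build than the mm9 of the counts, on the strand of the gene, with CG dinucleotides in capitals. The windows are chr15:18820079-18820328 for *Cdh10*, chr14:54641365-54641614 for *Cdh24*, chr3:45378148-45378397 for *Pcdh10* and chr14:84443313-84443562 for *Pcdh17*.
*Cdh10*: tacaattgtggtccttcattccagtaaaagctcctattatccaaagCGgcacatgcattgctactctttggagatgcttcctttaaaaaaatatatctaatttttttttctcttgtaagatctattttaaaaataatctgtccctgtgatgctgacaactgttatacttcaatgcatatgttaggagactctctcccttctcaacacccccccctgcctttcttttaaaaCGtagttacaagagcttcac
*Cdh24*: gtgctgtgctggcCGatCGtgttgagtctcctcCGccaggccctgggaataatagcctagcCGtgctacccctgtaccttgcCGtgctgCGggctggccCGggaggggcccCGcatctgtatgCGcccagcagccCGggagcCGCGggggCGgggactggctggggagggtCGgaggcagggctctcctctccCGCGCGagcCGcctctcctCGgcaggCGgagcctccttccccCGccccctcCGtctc
*Pcdh10*: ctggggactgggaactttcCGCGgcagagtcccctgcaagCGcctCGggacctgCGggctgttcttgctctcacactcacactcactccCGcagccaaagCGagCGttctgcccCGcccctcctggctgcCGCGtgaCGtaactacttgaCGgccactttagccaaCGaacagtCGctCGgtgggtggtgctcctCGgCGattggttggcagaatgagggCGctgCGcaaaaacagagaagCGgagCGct
*Pcdh17*: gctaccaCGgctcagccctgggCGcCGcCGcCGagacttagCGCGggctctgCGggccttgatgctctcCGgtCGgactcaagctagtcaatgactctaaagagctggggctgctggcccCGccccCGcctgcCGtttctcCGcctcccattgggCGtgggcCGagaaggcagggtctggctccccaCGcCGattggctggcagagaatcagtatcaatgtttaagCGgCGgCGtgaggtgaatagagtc
*Cdh10* had 2 CG in this window, *Cdh24* and *Pcdh10* had 22 each and *Pcdh17* had 21, where the median over 32851 RefSeq windows of the same length was 6. The windows of other members called higher in a 67NR knockout held 5 (*Cdh23*), 7 (*Pcdh7*), 18 (*Pcdh9*), 16 (*Pcdh19*) and 23 (*Pcdh18*). The windows of the risers thus lay on both sides of the median. At least as many as in the *Cdh10* window were found in 81.2% of all windows, and 22 or more in 14.8%. The type II genes that fell thus differed in CG content as widely as the windows shown. A window was used for 22 members, none of them in the clusters. CACCTG or its complement CAGGTG, 1 motif read on both strands, lay in 2 of the 22 (*Cdh7* and *Pcdh15*) and in 17.2% of all windows, and GGGCGG or CCGCCC in 9 of the 22 and in 32.7% of all windows. These matches describe the letters of the windows only.

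The summed level of the PCDHG cluster rose in 67NR. All 22 PCDHG genes end in shared constant exons, so that the split of reads between them is uncertain and the sum is the safer value. Their summed level in 67NR was 6.87, 5.32 and 3.95 CPM in WT, 44.2, 30.4 and 22.5 in *Kmt2c* KO and 20.1, 19.9 and 14.8 in *Kmt2d* KO. All knockout libraries exceeded all WT libraries (log2 2.67 ± 0.31, adjusted p = 2.0e-04, and 1.84 ± 0.30, adjusted p = 0.0025). In 168FARN the sum was 13.8, 27.4 and 43.1 in WT, 10.3, 11.7 and 52.9 in *Kmt2c* KO and 9.25, 12.6 and 47.2 in *Kmt2d* KO, with log2 fold changes of -0.17 ± 0.83 and -0.28 ± 0.83. There replicate 3 was the highest library of each genotype. *Pcdhgc3*, one of the C-type isoforms, held 70.6 to 77.0% of the counts of the cluster in every group, a share of counts that takes no account of length.

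Within the cluster, 9 genes were tested in 67NR, of which 8 rose and 1 fell in *Kmt2c* KO and 7 rose in *Kmt2d* KO. Of all genes, 17.9% rose and 17.4% fell in *Kmt2c* KO, and 13.9% rose in *Kmt2d* KO. *Pcdhga1*, *Pcdhgb2*, *Pcdhgb6*, *Pcdhgb7*, *Pcdhgb8*, *Pcdhgc4* and *Pcdhgc5* met the filter's minimum in every library of a genotype only in knockout cells, and *Pcdhga6* only in WT. The counts for the cluster are therefore descriptions. *Pcdhgc3* measured 5.22, 3.64 and 2.39 CPM in WT, 32.5, 21.5 and 14.1 in *Kmt2c* KO and 14.0, 15.3 and 8.99 in *Kmt2d* KO (log2 2.68 ± 0.40, adjusted p = 0.00088, and 1.84 ± 0.39, adjusted p = 0.0090). *Pcdhgb7* measured 0.189, 0.353 and 0.138 in WT, 4.67, 3.44 and 3.17 in *Kmt2c* KO and 2.21, 1.55 and 1.26 in *Kmt2d* KO (4.11 ± 0.45, adjusted p = 0.00014, and 2.94 ± 0.44, adjusted p = 0.0014). Both thus rose from WT to each knockout without overlap. *Pcdhgb6* went from 0.0945, 0.250 and 0.0459 to 1.98, 1.77 and 1.55 in *Kmt2c* KO and 0.996, 0.755 and 0.803 in *Kmt2d* KO, with log2 fold changes of 3.79 and 2.73. *Pcdhgc5* had few counts in WT, with 0.0355, 0 and 0.0459 CPM, and measured 0.60, 0.764 and 0.610 in *Kmt2c* KO and 0.443, 0.331 and 0.251 in *Kmt2d* KO, with fitted values of 4.64 and 3.70 that rest on few WT counts. *Pcdhgc4* was the one that stood higher in *Kmt2d* KO (0.646, 0.699 and 0.703) than in *Kmt2c* KO (0.287, 0.183 and 0.188) and WT (0.0709, 0.0881 and 0.0459). Its log2 fold changes were 1.72 and 3.33, and the call in *Kmt2c* KO was lost without *Kmt2c* KO replicate 1 (adjusted p = 0.11).

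The other PCDHG genes were at the edge of detection in 67NR WT. *Pcdhgb2* measured 0.142, 0.250 and 0.184 CPM in WT, 1.27, 1.04 and 0.563 in *Kmt2c* KO and 0.406, 0.258 and 1.15 in *Kmt2d* KO. It was called higher in both (2.40 and 1.71), but in *Kmt2d* KO (adjusted p = 0.092) not without any 1 of 5 libraries, all but *Kmt2d* KO replicate 2 (adjusted p from 0.12 to 0.32), and without *Kmt2d* KO replicate 3 the value fell to 0.89. *Pcdhgb8* measured 0.118, 0.206 and 0.0919 in WT, 1.10, 0.657 and 0.728 in *Kmt2c* KO and 0.295, 0.294 and 0.402 in *Kmt2d* KO, with values of 2.63 and 1.30. Its adjusted p in *Kmt2d* KO was 0.0999, and rose to 0.103 with the replicate block and to between 0.18 and 0.25 without any 1 library other than WT replicate 2. *Pcdhga1* measured 0.0709, 0.147 and 0.184 in WT, 0.365, 0.336 and 0.798 in *Kmt2c* KO and 0.258, 0.184 and 0.402 in *Kmt2d* KO. It rose in *Kmt2c* KO (1.99, adjusted p = 0.035), but not without *Kmt2c* KO replicate 3 (adjusted p = 0.13) or WT replicate 1 (adjusted p = 0.13). *Pcdhga6* was the exception that fell, from 0.260, 0.176 and 0.551 in WT to 0.0522, 0.122 and 0.0469 in *Kmt2c* KO (-2.0, adjusted p = 0.056), with 0.221, 0.0920 and 0.176 in *Kmt2d* KO. That call was lost without *Kmt2c* KO replicate 1 (adjusted p = 0.17), *Kmt2c* KO replicate 3 (adjusted p = 0.15) or WT replicate 3 (adjusted p = 0.16). The other 13 genes of the cluster were not tested in 67NR and stayed at or below 0.715 CPM in all 18 libraries.

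The PCDHB cluster is made of genes with a single coding exon each, and it fell in sum in 67NR. Its summed level was 28.5, 30.2 and 36.4 CPM in WT, 17.3, 17.3 and 22.2 in *Kmt2c* KO and 13.9, 14.4 and 24.7 in *Kmt2d* KO. Every knockout library lay below every WT library, while the knockouts overlapped each other. The log2 fold changes were -0.66 ± 0.24 (adjusted p = 0.061) and -0.77 ± 0.24 (adjusted p = 0.048). In *Kmt2c* KO the call was lost without WT replicate 2 or 3 or *Kmt2c* KO replicate 1 or 2 (adjusted p from 0.11 to 0.17), and in *Kmt2d* KO without *Kmt2d* KO replicate 1 or 2 (adjusted p of 0.17 for both). With the replicate block the adjusted p was 0.0025 and 0.0011. In 168FARN the sum was 15.3, 16.3 and 7.90 in WT, 16.2, 13.7 and 8.99 in *Kmt2c* KO and 16, 13.7 and 6.97 in *Kmt2d* KO, with log2 fold changes of -0.02 ± 0.40 and -0.09 ± 0.40. Of the counts of the cluster, without regard to length, *Pcdhb22* held 31.3% in 168FARN WT and *Pcdhb17* 23.0% in 67NR WT. Near-identical stretches between PCDHB genes may also move reads from one to another.

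Of 14 PCDHB genes tested in 67NR, 6 fell in each knockout, the same 6, and none rose. Of all genes, 17.4% fell in *Kmt2c* KO and 11.6% in *Kmt2d* KO. *Pcdhb5*, *Pcdhb7* and *Pcdhb9* met the filter's minimum in every library of a genotype only in WT, so these counts are descriptions. *Pcdhb17* measured 6.36, 6.48 and 9.51 CPM in WT, 3.46, 4.13 and 3.38 in *Kmt2c* KO and 3.06, 3.88 and 3.84 in *Kmt2d* KO (-0.94 and -0.97). *Pcdhb20* measured 2.56, 2.56 and 2.96 in WT, 0.900, 1.53 and 0.798 in *Kmt2c* KO and 0.996, 1.20 and 1.26 in *Kmt2d* KO (-1.24 and -1.15). The fall of *Pcdhb17* was near that of the sum, and the other 4 genes had larger fitted changes than these. *Pcdhb9* measured 1.75, 2.22 and 2.0 in WT, 0.287, 0.0917 and 0.0939 in *Kmt2c* KO and 0.461, 0.0368 and 0.351 in *Kmt2d* KO (-3.52 and -2.74). *Pcdhb7* measured 1.04, 1.03 and 1.84 in WT, 0.157, 0.122 and 0.188 in *Kmt2c* KO and 0.221, 0.110 and 0.151 in *Kmt2d* KO (-2.97 and -2.92). Neither overlapped between WT and knockout. *Pcdhb12* measured 0.792, 0.984 and 0.551 in WT, 0.183, 0.0306 and 0.0469 in *Kmt2c* KO and 0.184, 0.184 and 0.251 in *Kmt2d* KO (-2.99 and -1.83). *Pcdhb5* measured 0.934, 1.18 and 0.551 in WT, 0.209, 0.122 and 0.235 in *Kmt2c* KO and 0.295, 0.147 and 0.351 in *Kmt2d* KO (-2.15 and -1.68). In *Kmt2d* KO the calls of *Pcdhb12* (adjusted p = 0.072), *Pcdhb5* (0.051) and *Pcdhb20* (0.039) rested on single libraries. *Pcdhb12* lost its call without WT replicate 1 or 2 or any *Kmt2d* KO library (adjusted p from 0.11 to 0.20), *Pcdhb5* without replicate 1 or 2 of WT or *Kmt2d* KO (adjusted p from 0.13 to 0.18), and *Pcdhb20* without *Kmt2d* KO replicate 1 or 2 (adjusted p = 0.13 and 0.10). *Pcdhb16*, at 4.55, 4.60 and 4.57 in WT, 3.71, 3.73 and 6.34 in *Kmt2c* KO and 2.38, 2.04 and 6.90 in *Kmt2d* KO, was not called (0.08 and -0.21), nor were *Pcdhb14* (0.773 to 2.78 CPM over the 9 libraries of 67NR), *Pcdhb15* (0.627 to 1.83), *Pcdhb18* (2.08 to 4.55), *Pcdhb22* (0.959 to 4.5) and the other 3 tested. Of the 8 PCDHB genes not tested in 67NR, the highest, *Pcdhb4*, reached 0.551 CPM in WT replicate 3.

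The PCDHA cluster was all but silent. Of its 14 genes 10 had no count, and the other 4 had 29 counts in all over the 18 libraries, so none was tested.

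**Figure D3:**
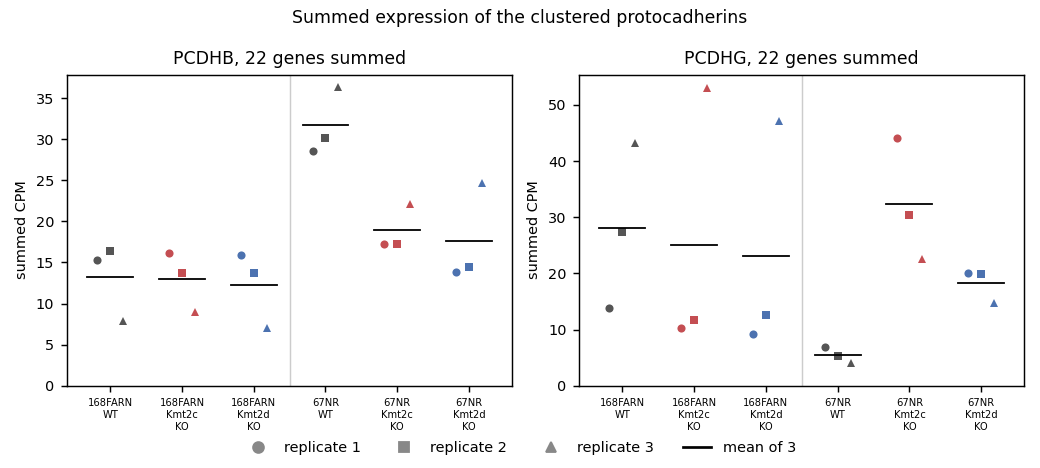
Summed CPM of the 22 PCDHB and the 22 PCDHG genes in each library, on linear axes from 0. Points are libraries with a symbol for each replicate number, and bars are means of 3. In 67NR the PCDHG sum lies at 3.95 to 6.87 in WT and 14.8 to 44.2 in the knockouts, the PCDHB sum at 28.5 to 36.4 in WT and 13.9 to 24.7 in the knockouts, and in 168FARN replicate 3 has the highest PCDHG sum of each genotype.

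Whether the difference between knockout and WT cells varied by line was tested as an interaction on all 18 libraries. The effect of *Kmt2c* KO was higher in 67NR than in 168FARN for 11 members and lower for 2, where 8.49% and 7.55% of all genes were called. The effect of *Kmt2d* KO was higher for 8 and lower for none, where 6.68% and 3.92% of all genes were called, and at an unadjusted p under 0.05 edgeR gave 12 members in all. *Cdh2* differed by 4.29 ± 0.57 on the log2 scale for *Kmt2c* KO (adjusted p = 1.0e-04) and 3.91 ± 0.57 for *Kmt2d* KO (adjusted p = 0.00036). *Pcdh10* differed most, by 4.93 ± 0.54 and 4.57 ± 0.53 (adjusted p = 1.5e-05 and 4.0e-05). *Pcdh7*, *Pcdh9*, *Pcdh17*, *Pcdh19*, *Pcdhgb6* and *Pcdhgb7* differed for both knockouts as well, by 2.77 to 4.34. For *Kmt2c* KO alone *Pcdh1* (0.91), *Pcdhgb8* (2.98), *Pcdhgc5* (4.31), *Cdh24* (-2.46) and *Pcdhb9* (-3.89) were also called. Of these, *Pcdh1*, *Pcdhgb8* and *Pcdhb9* lost the call when single libraries were left out, with adjusted p of up to 0.13, 0.15 and 0.23. For *Pcdh1* these were 67NR *Kmt2c* KO replicate 1, 67NR WT replicate 2 and 168FARN WT replicate 2. For *Pcdhgb8* they were 168FARN WT replicate 3, 168FARN *Kmt2c* KO replicate 2, 67NR WT replicate 1 and 67NR *Kmt2c* KO replicate 1. For *Pcdhb9* they were all but 67NR *Kmt2c* KO replicate 1 and 168FARN *Kmt2c* KO replicate 3. The PCDHG sum differed for *Kmt2c* KO (2.87 ± 0.91, adjusted p = 0.053) and was 2.14 ± 0.90 for *Kmt2d* KO (adjusted p = 0.20). With the replicate block the calls for *Kmt2d* KO rose from 8 to 16, among them *Pcdhgc3* (2.43, adjusted p = 0.00013), *Pcdh18* (1.76, adjusted p = 0.00016) and *Cdh24* (-1.83, adjusted p = 0.028). The share of all genes called in that fit is not given, so the larger count is no result about the members. For *Cdh10* the difference could not be estimated, since 168FARN had no counts.

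*Kmt2c* KO and *Kmt2d* KO cells were also compared directly. In 67NR no member was called, where 1.41% of all genes were (0.132% higher in *Kmt2c* KO than in *Kmt2d* KO and 1.28% lower), while 7 had an unadjusted p under 0.05 by edgeR and DESeq2 called 4 (*Cdh10*, *Cdh24*, *Pcdhgb7* and *Pcdhgc4*). With the replicate block 7 were called. The counts from DESeq2 and from the block are given without the share of all genes called in those fits. *Cdh10* (-1.66, adjusted p = 0.0010), *Cdh13* (-3.18, adjusted p = 0.0093) and *Cdh24* (-0.88, adjusted p = 0.061) were lower in *Kmt2c* KO. *Pcdh7* (0.66), *Pcdh9* (0.78), *Pcdhgc3* (0.79) and *Pcdhgb7* (1.19) were higher in *Kmt2c* KO. In 168FARN no member was called, where 0.253% of all genes were, 0 had an unadjusted p under 0.05, DESeq2 called 0 and the block 1 (*Pcdh18*, 0.84, adjusted p = 0.045).

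The WT cells of the lines differed in many of the same genes. In 67NR WT 11 of 37 members were higher and 13 lower than in 168FARN WT, where 22.3% and 16.9% of all genes were called. Lower in 67NR were *Pcdh10* (log2 difference -5.15 ± 0.43), *Pcdh7* (-3.64 ± 0.50), *Pcdh9* (-3.44 ± 0.48), *Cdh2* (-2.87 ± 0.42), *Pcdh19* (-2.23 ± 0.45), *Pcdh17* (-2.22 ± 0.53) and 7 PCDHG genes, and higher were *Cdh24* (2.81 ± 0.50), *Cdh10*, *Cdh13*, *Pcdh15* and 7 PCDHB genes. The PCDHG sum was lower by -2.42 ± 0.66 and the PCDHB sum higher by 1.22 ± 0.36. No size is given for *Cdh13* and *Pcdh15*, which had no count in 168FARN WT. These tests share the 67NR WT libraries with the knockout comparisons, so the likeness of the lists is a description only. WT of the lines may also differ in the control they carry, which cannot be told apart from the line here.

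Of the proteins that cadherins bind or depend on, a list of 19 catenins and junction partners held 17 tested genes in 67NR, of which 4 rose and 7 fell in *Kmt2c* KO and 1 rose and 7 fell in *Kmt2d* KO. Against these and the next 3 lists stand 17.9% of all genes higher and 17.4% lower in *Kmt2c* KO, and 13.9% and 11.6% in *Kmt2d* KO. *Ctnnb1* (beta-catenin) measured 1320.3, 1487 and 1121 CPM in WT, 419.5, 443 and 517 in *Kmt2c* KO and 469.6, 478 and 612 in *Kmt2d* KO, so that it fell by 1.43 and 1.26 on the log2 scale without overlap. *Jup* (plakoglobin) fell by 2.31 and 1.62, the junction scaffold *Plekha7* by 2.29 and 1.11, and the nectins *Pvrl2* by 1.49 and 1.20 and *Pvrl4* by 2.46 and 2.07. Of 11 other genes of the cadherin superfamily, 3 rose and 5 fell in *Kmt2c* KO and 3 rose and 4 fell in *Kmt2d* KO. *Fat2* (4.58 and 3.94) and *Clstn3* (3.74 and 3.07) rose, and the desmosomal cadherin *Dsg2* (-2.28 and -1.11) and the planar polarity genes *Celsr1* (-3.46 and -3.49) and *Celsr2* (-2.45 and -1.83) fell. Of 11 enzymes that process cadherins none rose, and 3 fell in *Kmt2c* KO (*Pcsk6* -2.70, *Ncstn* -0.69 and *Psen2* -0.94) and 2 in *Kmt2d* KO (*Pcsk6* -2.67 and *Ncstn* -0.61). Of 15 regulators known for the clustered protocadherins, *Rest* (1.25 and 1.02) and the cohesin subunit *Stag2* (0.61 and 0.68) rose in both knockouts and the DNA methyltransferase *Dnmt3b* fell in both (-2.27 and -1.50), while *Smc1a* fell in *Kmt2d* KO (-0.68). In 168FARN 0 genes of these lists were called.

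**Figure D4:**
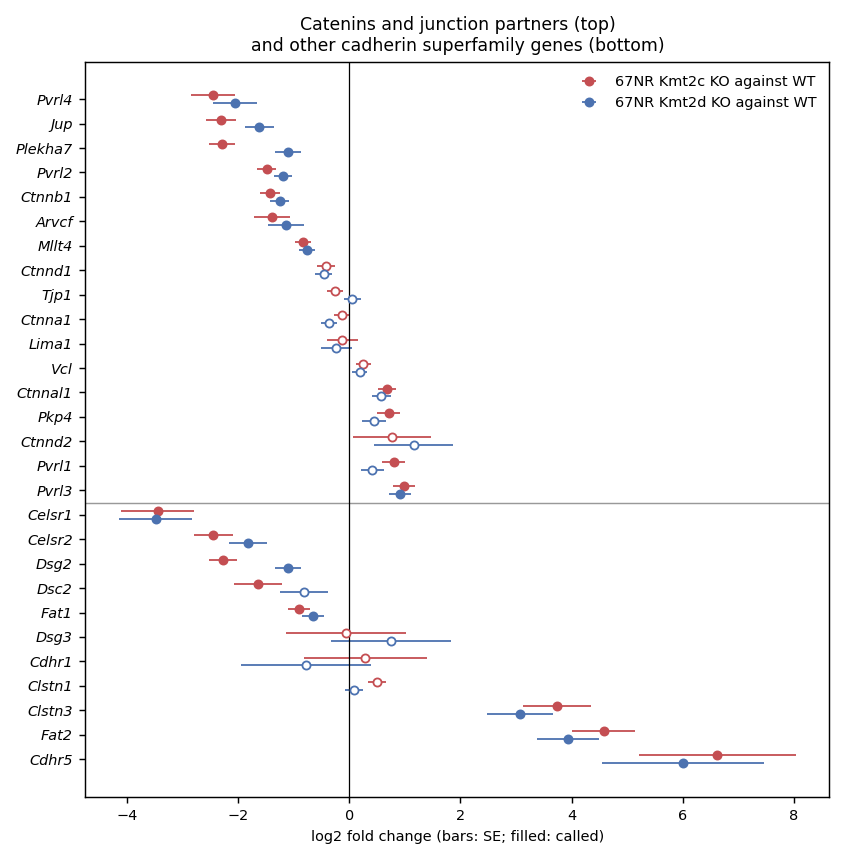
Log2 fold changes with SE of the catenins and junction partners and of the other cadherin superfamily genes in 67NR, for each knockout against WT. Filled points passed the threshold. *Jup*, *Ctnnb1*, *Plekha7*, *Pvrl2* and *Pvrl4* lie left of 0 and *Fat2* and *Clstn3* right of it in both knockouts.

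*Cdh1* and *Cdh5* are left out by the rule and serve as reference. *Cdh1* measured 502, 516 and 458 CPM in 67NR WT, 74.4, 72.3 and 53.1 in *Kmt2c* KO and 204, 189 and 151 in *Kmt2d* KO (-2.80 and -1.36), and at most 0.0877 in 168FARN. Per kilobase the 67NR WT level of *Cdh1* was 111 CPM and that of *Cdh2* 2.28, and in *Kmt2c* KO these were 15 and 40.1. In *Kmt2d* KO, where *Cdh1* fell less, *Cdh2* stood at 31.0 CPM per kb and *Cdh1* remained above it. *Cdh5* (VE-cadherin) rose in both 67NR knockouts (2.60 and 1.75) and in 168FARN *Kmt2c* KO (2.61, adjusted p = 0.054). Cell type markers moved with the members in 67NR. The epithelial markers (*Krt8*, *Krt18*, *Epcam*, *Cldn4* and *Esrp1*) summed to 2081 to 3424 CPM in WT, 464 to 730.3 in *Kmt2c* KO and 767 to 1430.0 in *Kmt2d* KO, with 5 of 5 lower in *Kmt2c* KO and 3 of 5 in *Kmt2d* KO. Of the mesenchymal markers *Zeb1*, *Zeb2*, *Twist1* and *Vim* rose and *Fn1* fell in both. The mesenchymal sum overlapped between genotypes, at 3246 to 6144 CPM in 67NR WT, 4092 to 5220 in *Kmt2c* KO and 3835 to 5329 in *Kmt2d* KO. Against these marker counts stand 17.9% of all genes higher and 17.4% lower in *Kmt2c* KO, and 13.9% and 11.6% in *Kmt2d* KO. Of 6 neural markers 3 were tested, and *Map2*, which encodes a microtubule-associated protein, fell in *Kmt2c* KO (-1.0). The neural list summed to 92.8 to 112 CPM in 67NR WT, 52.9 to 61.5 in *Kmt2c* KO and 75.8 to 92.5 in *Kmt2d* KO, and to 14.02 to 33.8 in 168FARN. The part of these shifts in the members' changes was not tested, and in bulk samples fewer cells of a kind and less RNA per cell cannot be told apart.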

How the data were processed

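RNA-seq libraries (KAPA mRNA HyperPrep) covered 2 lines, 168FARN and 67NR, and 3 genotypes, with 3 replicates each. The authors aligned the reads with STAR within the VIPER pipeline to mm9 and deposited raw counts per gene symbol, without normalization or filter. The annotation and the strand setting of the counting are not given in the sources used here, so counts of overlapping genes and antisense partners are uncertain. All 18 columns were matched to samples by name, with 0 left over, and 0 pairs of libraries held identical counts.

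Counts were tested with edgeR 4.0.16 (R 4.3.3, limma 3.58.1) after TMM scaling and the filter filterByExpr by group, with robust quasi-likelihood fits of genotype on the 9 libraries of a line (12253 genes in 168FARN, 13665 in 67NR), or of the 6 groups on all 18 libraries (13882 genes) for tests between lines. Adjustment of p-values (Benjamini-Hochberg) ran over all genes tested. The SE is the size of the log2 fold change over the square root of the F statistic. Replicates were collected a passage apart from the same line, per the study's reporting summary, so p-values measure the spread between such collections. Deviations from the group means had correlations between libraries of the same number of 0.65 to 0.90 (168FARN) and 0.35 to 0.72 (67NR), and between those of different number of -0.82 to 0.73 and -0.60 to 0.52. Every same-number correlation was over 0.1, and the study removed collection time as a batch effect for its heatmaps. The numbers were therefore taken to pair the samples. The study's own tests used genotype alone, and the sample names give replicate numbers and not collection times. The correlations do not clearly tell numbers 1 and 2 apart. For example, 168FARN WT replicate 1 had 0.73 with *Kmt2c* KO replicate 2 and 0.72 with *Kmt2c* KO replicate 1. The main calls come from fits of genotype without this pairing. Gene positions and transcript lengths are those of an mm9 annotation, and upstream sequences are from RefSeq.

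The members, the lists and the rule for naming genes were chosen with earlier results of these data known. Members with a mean of at least 1 CPM in a group or called in any comparison are named, and of the other lists at most 5 called genes each. The alternatives were DESeq2 1.42.0, its size factors within edgeR, a replicate block, no low-count filter, a fit of the 6 libraries compared alone, an adjusted p under 0.05 with no fold change threshold and each library left out in turn. Fits of replicates 1 and 2 alone, and of 67NR counts divided by 2 and rounded up, were added after seeing the data.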

Additional observations from a re-analysis of the deposited data

Results flagged for a closer look

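The effect of a knockout differed between 67NR and 168FARN, by edgeR's test of the interaction, for the genes below, given as the effect in 67NR minus that in 168FARN on the log2 scale. For *Kmt2c* KO the difference was 4.29 for *Cdh2*, 4.34 for *Pcdh7*, 4.29 for *Pcdh9*, 4.93 for *Pcdh10*, 4.02 for *Pcdh17*, 3.38 for *Pcdh19* and 0.91 for *Pcdh1*. It was 4.25 for *Pcdhgb6*, 4.30 for *Pcdhgb7*, 2.98 for *Pcdhgb8*, 4.31 for *Pcdhgc5* and 2.87 for the PCDHG sum, and -2.46 for *Cdh24* and -3.89 for *Pcdhb9*. For *Kmt2d* KO it was 3.91 for *Cdh2*, 3.95 for *Pcdh7*, 4.29 for *Pcdh9*, 4.57 for *Pcdh10*, 3.69 for *Pcdh17*, 2.77 for *Pcdh19*, 3.41 for *Pcdhgb6* and 3.62 for *Pcdhgb7*. For the genes called for both knockouts, every 67NR knockout library lay above every 67NR WT library. These genes were selected by tests on the same libraries, so this separation adds no support. Among them, *Pcdh9*, *Pcdhgb6* and *Pcdhgb7* met the filter's minimum in every library of a 67NR genotype only in knockout cells. The 2 sets of tests share the WT libraries of both lines.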

How the results depend on the processing

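Of 69 calls of members, in 67NR against WT and between lines, 55 held in every fit that left out 1 library, and 14 were lost in at least 1 such fit. A further 667 values were compared with the main fit. They came from the other alternatives and, of the fits without 1 library, only those with the lowest and highest value of each call. Of the 667, 631 kept direction and call, 36 kept direction only and 0 reversed. Leaving out 1 library gave 23 to 26 calls in 67NR *Kmt2c* KO, 17 to 22 in *Kmt2d* KO, 11 to 17 and 8 to 11 for the *Kmt2c* KO and *Kmt2d* KO differences between lines, 19 to 24 between WT cells, and 0 elsewhere. The PCDHB sum then ranged from -0.79 to -0.55 in 67NR *Kmt2c* KO and from -1.07 to -0.62 in *Kmt2d* KO.

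The counts under alternatives below are given without the share of all genes called, so they are not set against a background. With the replicate block the calls were 1 in 168FARN *Kmt2c* KO, 2 in 168FARN *Kmt2d* KO, 1 and 7 between the knockouts of 168FARN and 67NR, and 16 for the *Kmt2d* KO difference between lines. Pairing also added *Pcdh15* (2.46) in 67NR *Kmt2c* KO, *Pcdhb14* (-0.88) in 67NR *Kmt2d* KO, and 6 members for the *Kmt2c* KO difference and 2 between WT cells. Apart from these and the changes given beside each result above, it changed no other call. DESeq2 called 1 member in 168FARN *Kmt2c* KO and 4 between the 67NR knockouts. It also added *Pcdh18* (0.79) in 67NR *Kmt2c* KO and *Cdh23* (1.40) in 67NR *Kmt2d* KO. For the *Kmt2c* KO difference between lines it added *Pcdhgc3* and *Cdh10*, the latter without counts in 168FARN. For the *Kmt2d* KO difference it added *Cdh24* (-1.84), *Pcdh18* (1.71) and *Pcdhgc4* (2.98), and between WT cells *Pcdhb5* and *Pcdhb15*. Replicates 1 and 2 alone gave 5 and 4 calls in the 168FARN knockouts, 1 and 11 between the knockouts of 168FARN and 67NR, and 20 and 17 between lines. In 168FARN *Kmt2c* KO these were *Cdh23* (0.69), *Pcdhb14* (-1.33), *Pcdhb7* (-2.73), *Pcdhgb7* (-0.91) and *Pcdhgc3* (-1.28). In 168FARN *Kmt2d* KO they were *Cdh23* (1.24), *Pcdh18* (-0.83), *Pcdhb21* (-2.11) and *Pcdhgb7* (-1.44). The cause of the differences from the main fits was not tested. With 67NR counts divided by 2, 24 and 23 members were called in its knockouts.

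Depth limits what can be seen of the 16 members without counts and of the PCDHA cluster.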
